A study of Mus musculus with 27 samples.

Results

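Cholesterol synthesis was followed through 8 genes in mouse uterus exposed to estradiol (E2), the main ovarian estrogen. They were Hmgcs1, Idi1, Fdps, Fdft1, Sqle, Lss and Cyp51, which encode enzymes of the pathway, and Srebf2, which encodes the transcription factor that controls it. Members were the probes whose gene name in the scanner files is one of these symbols, which gave 20 of the 41174 probes and 8 of the 27962 names on the array. All animals were ovariectomised females aged 8 weeks, so that the uterus had no ovarian estrogen of its own, and they rested for 1 to 2 weeks before treatment. Uteri came from C57BL/6 (B6), C3H/HeJ (C3H) and the F1 hybrid of both (F1). Each kind received either a single intraperitoneal dose of E2 at 40.0 µg per kg body weight or the ethanol and saline vehicle. Tissue was collected 2 h or 24 h after the E2 dose, while for vehicle groups no collection time is given. The design gave 9 groups of 3 arrays, 27 in all, each of RNA from whole uterus. The labels state 3 animals per group but do not link arrays to animals, and p-values therefore measure the spread between these samples, which may be technical. In whole tissue, a change in the share of cells that express a gene and a change in RNA per cell cannot be told apart.

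Cholesterol is built from acetyl-CoA through the mevalonate pathway. Acetoacetyl-CoA and acetyl-CoA are joined by the synthase Hmgcs1, and the product is reduced to mevalonate. Mevalonate becomes isopentenyl diphosphate, which Idi1 isomerises and Fdps joins into farnesyl diphosphate, the branch point towards sterols, dolichol, ubiquinone and protein prenylation. Fdft1 commits farnesyl diphosphate to squalene, Sqle oxidises squalene, Lss closes the rings to lanosterol, and Cyp51 starts the removal of methyl groups that leads to cholesterol. When sterols in the endoplasmic reticulum are low, Scap carries the Srebf2 product to the Golgi, where proteases release a fragment that switches on these genes. Estradiol makes the uterus of an ovariectomised mouse take up water within hours and sets the epithelium dividing by the next day.

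The promoters of members are shown first, because genes that move together in the data can be set beside the sequence before their start. RefSeq sequences (GRCm38.p6) were at hand for 5 members, namely Hmgcs1, Idi1, Lss, Cyp51 and Srebf2. The 250 bases before the annotated start are printed 5′ to 3′ on the gene's strand for Hmgcs1, the first enzyme of the set, Idi1, which had one of the largest rises, and the regulator gene Srebf2. Capitals mark matches to a sterol regulatory element searched as TCACNCCAC, to its shorter form TCACNCCA, or to the CCAAT box of NF-Y, each on both strands (CCAAT on the other strand reads ATTGG).
Hmgcs1 promoter (chr13:119690101-119690350, plus strand): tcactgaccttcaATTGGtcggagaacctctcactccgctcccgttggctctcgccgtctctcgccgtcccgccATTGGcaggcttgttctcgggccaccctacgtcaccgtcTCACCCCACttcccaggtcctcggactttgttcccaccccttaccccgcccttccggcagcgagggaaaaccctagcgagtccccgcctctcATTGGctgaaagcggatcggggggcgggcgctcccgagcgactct
Idi1 promoter (chr13:8885356-8885605, plus strand): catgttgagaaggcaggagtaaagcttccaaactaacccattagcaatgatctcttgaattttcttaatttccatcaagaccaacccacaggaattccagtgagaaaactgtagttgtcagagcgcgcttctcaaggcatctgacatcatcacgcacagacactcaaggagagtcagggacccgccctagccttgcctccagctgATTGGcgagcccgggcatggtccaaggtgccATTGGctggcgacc
Srebf2 promoter (chr15:82147019-82147268, plus strand): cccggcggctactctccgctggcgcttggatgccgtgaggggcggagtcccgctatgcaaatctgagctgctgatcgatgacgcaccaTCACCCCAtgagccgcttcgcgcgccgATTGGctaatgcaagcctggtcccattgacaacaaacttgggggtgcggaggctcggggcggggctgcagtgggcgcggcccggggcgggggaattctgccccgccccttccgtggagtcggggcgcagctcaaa

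Of the 5 promoters, searched over 250 bases before to 50 bases after the start, 1 held TCACNCCAC (Hmgcs1, 137 bases before the start). Among all 32851 promoters of this length in the table, 1.24% held it. The shorter form, added after the sequences had been seen and contained in the longer one, was in 2 of 5 (Hmgcs1 and Srebf2) against 4.36% of all. A CCAAT box was in 5 of 5 against 37.4% of all, with 4 in Hmgcs1. The GC box GGGCGG, not capitalised, was likewise in 5 of 5 against 35.7%. The full palindromic estrogen response element, GGTCA and TGACC with any 3 bases between, was in 0 of 5 against 0.07% of all promoters. A match describes letters in this window and no more.

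What the arrays measured is the signal of 60-base probes. The files place 3 of the member probes over a stretch of genome longer than 60 bases, so as placed they cross at least 1 junction between exons and read spliced RNA. They are shown for that reason, 5′ to 3′, with the position the files give on the mouse build mm7, minus strand.
Fdps probe A_51_P379798 (chr3:89208691-89208831): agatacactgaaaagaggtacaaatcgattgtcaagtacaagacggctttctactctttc
Fdft1 probe A_51_P485946 (chr14:58010811-58015051): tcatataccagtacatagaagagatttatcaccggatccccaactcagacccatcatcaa
Cyp51 probe A_51_P485791 (chr5:4098039-4098445): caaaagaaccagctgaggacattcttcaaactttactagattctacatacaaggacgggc

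The Fdps and Fdft1 sequences stand for their genes in all values below, because each had the highest mean signal among the probes of its gene. The Cyp51 junction probe is a dimmer companion of the one that stands for Cyp51. No annotation of mm7 was used, so exon or UTR positions of the other probes are not given.

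Intensity at the 75th percentile ranged from 1211 to 1579 over the arrays, each array had 72.9% to 79.9% of its probes well above background, and replicate arrays correlated across genes at r = 0.988 to 0.996. Every one of the 20 member probes passed that mark on each of the 27 arrays. Replicate 1 stood apart in 3 groups: 479 genes of the C3H 24 h array, 437 of the B6 vehicle array and 302 of the C3H 2 h array differed by more than 1 log2 unit from the mean of their replicates. Without these 3 arrays, 6 rather than 5 members rose at 2 h in B6 and in C3H, and the other counts of members called against vehicle were the same. All 6 markers of uterus (Esr1, Pgr, Hoxa10, Hoxa11, Wnt7a and Msx1) were well above background on every array. Markers of steroid-forming ovarian or adrenal cells summed to 0.37 to 0.88 times the 75th percentile over 5 genes. The median change of all 22083 genes tested was −0.09, −0.13 and −0.12 at 2 h and −0.06, −0.17 and −0.04 at 24 h in B6, C3H and F1. Centring arrays on the median set it at 0.01, 0.04 and 0.04 and 0.19, 0.03 and 0.15, and shares of called genes that were higher went from 40%, 39.1% and 38.3% to 50.3%, 54.4% and 51.8% at 2 h and from 45%, 39.8% and 45.9% to 61%, 54.4% and 58.6% at 24 h. The unscaled deposited values gave 49%, 56.2% and 60.6% at 2 h and 49.8%, 49.6% and 58% at 24 h.

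At 24 h after E2, RNA of all 8 members was higher than in vehicle in each of the 3 strains. Fdps rose most in B6, by 3.74 on the log2 scale or 13.3-fold, and Idi1, Sqle and Cyp51 rose by over 2 log2 units in every strain. The called members numbered 8 of 8 in B6, C3H and F1, where 30.6%, 26.8% and 31.4% of all genes were called higher and 37.4%, 40.6% and 37.1% lower. Members were chosen with earlier results of these data known, so the count describes them and is no test against those shares. Here and below, called means an adjusted p under 0.05 (limma, Benjamini-Hochberg over all genes). The median member change was 2.62, 1.87 and 2.14. Each member's 24 h arrays lay above its vehicle arrays without overlap in every strain, as did those of 32.4%, 29.4% and 34.8% of all genes. With normexp background correction Srebf2 in C3H and Lss in F1 were not called (adjusted p = 0.06 and 0.111).

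The early response was smaller and mixed. At 2 h, by the brightest probe of each gene, Hmgcs1, Idi1, Fdft1, Sqle and Cyp51 were higher, Lss was lower, and Fdps and Srebf2 were not called. That gave 5 higher and 1 lower of 8 in B6, C3H and F1 alike, beside 22.7%, 23.8% and 22.9% of all genes called higher and 34%, 37.2% and 36.9% lower. Of the 4 Srebf2 probes, however, 2 were called higher in each strain, and of the 2 Fdps probes 1 was, in B6 alone. The median member change was 0.56, 0.59 and 0.65. At 24 h against 2 h, 8 members were called higher in B6, 7 in C3H and 8 in F1. Beside them, 35.8%, 34.5% and 38.2% of all genes were called higher and 32.9%, 35.8% and 30.4% lower. The exception was Fdft1 in C3H, at 0.08 (adjusted p = 0.536). All these comparisons within a strain share arrays: the vehicle arrays serve both times.

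**Figure D1:**
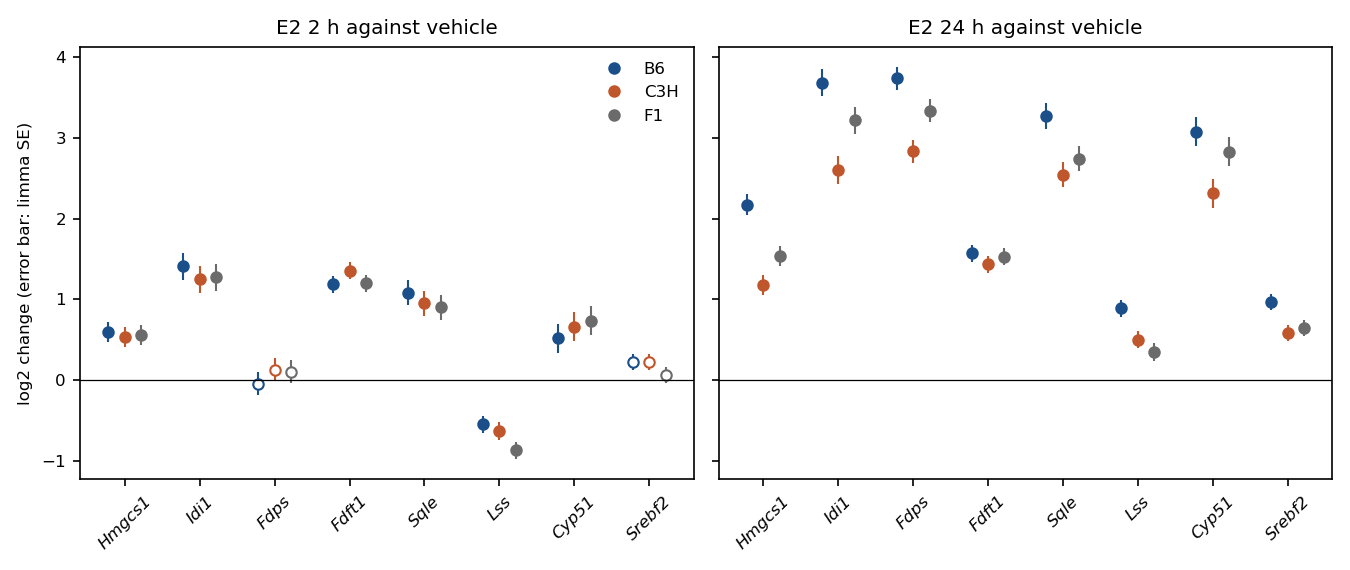
Log2 change of each member against vehicle (vertical axis) at 2 h and at 24 h after E2 in B6, C3H and F1; filled points were called, open points were not, and error bars are limma standard errors (n = 3 arrays per group). At 24 h all 24 points lie above 0, from 0.35 for Lss in F1 to 3.74 for Fdps in B6.

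Values of single members follow in the order of the pathway. A level is the log2 of the spot signal minus that of the array's 75th percentile, so a level of 0 is that percentile, and levels of different genes are not set against each other. Replicates are given in the order 1, 2 and 3, and changes in the order B6, C3H and F1.

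Hmgcs1, the cytosolic synthase that forms HMG-CoA, was read by a probe to NM_145942 placed at chrUn_random:9357630-9357689 on mm7. On the vehicle arrays Hmgcs1 stood at 2.22, 2.05 and 2.09 (B6), 2.18, 2.11 and 2.21 (C3H) and 2.28, 2.07 and 2.12 (F1). At 2 h after E2 Hmgcs1 was at 2.55, 2.74 and 2.86 (B6), 2.47, 2.89 and 2.74 (C3H) and 2.62, 2.68 and 2.84 (F1). By 24 h Hmgcs1 had reached 3.99, 4.31 and 4.58 (B6), 3.39, 3.30 and 3.35 (C3H) and 3.50, 3.75 and 3.82 (F1). Every 24 h array was above every 2 h array, and every 2 h array above every vehicle array. Hmgcs1 changed by 0.60, 0.53 and 0.56 at 2 h (SE 0.13, adjusted p = 0.000413, 0.00114 and 0.00072). At 24 h the changes were 2.17, 1.18 and 1.53, or 4.51-, 2.26- and 2.9-fold (adjusted p = 5.41e-12, 8.24e-08 and 1.31e-09). At 24 h the strain means were 4.29 ± 0.30 (SD, n = 3) in B6, 3.69 ± 0.17 in F1 and 3.35 ± 0.05 in C3H, and the arrays of the 3 strains did not overlap. At 2 h and in vehicle the strains overlapped. The other probes to Hmgcs1 changed at 24 h by 2.01, 1.16 and 1.78 and by 1.14, 1.00 and 1.34. The probe to AK078743 differed between C3H and B6 vehicle by −0.97 (adjusted p = 0.00025) and the probe at chrUn_random:9360490-9360549 by 0.67 (adjusted p = 0.0153), while the brightest probe differed by 0.05.

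Idi1, the isomerase that makes dimethylallyl diphosphate, was read by a probe to NM_177960 placed at chr2:53701852-53701911 on mm7. Vehicle levels of Idi1 were 0.03, −0.26 and −0.42 (B6), 0.18, −0.07 and −0.04 (C3H) and −0.04, −0.27 and −0.23 (F1). Levels 2 h after E2 were 1.03, 1.19 and 1.34 (B6), 0.88, 1.59 and 1.35 (C3H) and 0.84, 0.98 and 1.46 (F1). Levels 24 h after E2 were 3.28, 3.55 and 3.57 (B6), 2.74, 2.50 and 2.63 (C3H) and 2.86, 3.19 and 3.06 (F1). The 3 levels of treatment did not overlap in any strain. Idi1 rose by 1.41, 1.25 and 1.27 at 2 h (SE 0.17, adjusted p = 4.41e-07, 2.03e-06 and 1.46e-06). Among members these were the largest 2 h changes in B6 and F1. At 24 h it rose by 3.68, 2.60 and 3.21, or 12.8-, 6.07- and 9.29-fold (adjusted p = 1.68e-13, 6.32e-11 and 1.73e-12). The 24 h means were 3.47 ± 0.16 in B6, 3.04 ± 0.17 in F1 and 2.62 ± 0.12 in C3H (SD, n = 3), in that order and without overlap. The second probe moved by 1.19, 1.14 and 1.16 at 2 h and 3.75, 2.60 and 3.23 at 24 h, close to the first. The files place both on chromosome 2 of mm7, whereas the RefSeq table for GRCm38.p6 has Idi1 on chromosome 13.

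Fdps, farnesyl diphosphate synthase, was read by a probe to NM_134469 placed at chr3:89208691-89208831 on mm7. In vehicle, Fdps gave 0.26, −0.25 and −0.19 (B6), 0.24, 0.02 and 0.14 (C3H) and 0.17, 0.05 and 0.13 (F1). After 2 h of E2 Fdps gave −0.20, −0.06 and −0.04 (B6), 0.04, 0.60 and 0.15 (C3H) and −0.02, 0.22 and 0.46 (F1). After 24 h Fdps gave 3.61, 3.53 and 3.90 (B6), 2.90, 2.99 and 3.01 (C3H) and 3.35, 3.58 and 3.43 (F1). At 2 h the arrays overlapped those of vehicle in each strain, and at 24 h they stood clear of both. The 2 h changes were −0.05, 0.13 and 0.10 (SE 0.15, adjusted p = 0.813, 0.457 and 0.569), though with unscaled values the change in F1 was called at 0.36 (adjusted p = 0.0425). The 24 h changes were 3.74, 2.83 and 3.34, or 13.3-, 7.13- and 10.1-fold (adjusted p = 1.9e-14, 2.5e-12 and 1.33e-13), the largest of any member in each strain. The 24 h means were 3.68 ± 0.19, 3.45 ± 0.11 and 2.97 ± 0.06 in B6, F1 and C3H. B6 and F1 overlapped, and C3H lay below both. A second probe, to AK077979, rose less at 24 h, by 2.00, 1.36 and 1.66, and at 2 h stood at 0.56, 0.09 and −0.16 (adjusted p = 0.00813, 0.666 and 0.452).

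Fdft1, squalene synthase, was read by a probe to NM_010191 placed at chr14:58010811-58015051 on mm7. The vehicle arrays had Fdft1 at 0.35, 0.47 and 0.32 (B6), 0.09, 0.15 and 0.01 (C3H) and 0.33, 0.25 and 0.27 (F1). The 2 h arrays had Fdft1 at 1.36, 1.59 and 1.74 (B6), 1.35, 1.51 and 1.45 (C3H) and 1.39, 1.42 and 1.63 (F1). The 24 h arrays had Fdft1 at 1.77, 2.05 and 2.02 (B6), 1.41, 1.66 and 1.48 (C3H) and 1.62, 1.78 and 2.04 (F1). For Fdft1 most of the rise was present at 2 h, in contrast to Fdps. Its 2 h changes were 1.19, 1.35 and 1.20 (SE 0.11, adjusted p = 7.61e-09, 9.17e-10 and 5.51e-09), or 75.5% to 94.6% of its 24 h log2 changes of 1.57, 1.43 and 1.53 (adjusted p = 6.78e-11, 5.2e-10 and 1.29e-10). In C3H and F1 the 2 h and 24 h arrays overlapped, and the further rise in F1 of 0.33 (adjusted p = 0.0102) was not called without F1 E2 24 h replicate 3 (adjusted p = 0.0885). The second probe to the same transcript was dim and rose by 0.98, 0.91 and 0.91 at 2 h, and by 0.62, 0.13 and 0.45 at 24 h (adjusted p = 0.00425, 0.533 and 0.031), so by that probe the change was smaller at 24 h than at 2 h. Averaging both probes turned the 24 h against 2 h difference to −0.35 in C3H and −0.06 in F1. In B6 the average left a difference of 0.01, which was not called (limma, adjusted p = 0.936).

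Sqle, squalene epoxidase, a second control point of the pathway, was read by a probe to NM_009270 placed at chr15:59397289-59397348 on mm7. Sqle measured in vehicle −0.11, −0.20 and −0.22 (B6), −0.06, −0.15 and −0.27 (C3H) and −0.21, −0.24 and −0.12 (F1). Sqle measured at 2 h 0.66, 0.97 and 1.08 (B6), 0.52, 1.03 and 0.82 (C3H) and 0.42, 0.61 and 1.10 (F1). Sqle measured at 24 h 2.86, 3.08 and 3.34 (B6), 2.50, 2.37 and 2.29 (C3H) and 2.40, 2.55 and 2.70 (F1). The treatments did not overlap in any strain. Sqle, read by 1 probe, rose by 1.08, 0.95 and 0.90 at 2 h (SE 0.16, adjusted p = 4.76e-06, 2.04e-05 and 3.65e-05) and by 3.27, 2.55 and 2.74 at 24 h, or 9.65-, 5.84- and 6.67-fold (adjusted p = 2.59e-13, 2.54e-11 and 4.86e-12). The 24 h means were 3.09 ± 0.24 in B6, 2.55 ± 0.15 in F1 and 2.39 ± 0.11 in C3H. F1 overlapped C3H, and B6 was above both.

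Lss, lanosterol synthase, was read by a probe to AK147680 placed at chr10:76212419-76212478 on mm7. Without E2, levels of Lss were −0.30, −0.15 and −0.31 (B6), −0.16, −0.15 and −0.21 (C3H) and −0.06, −0.38 and −0.29 (F1). With E2 for 2 h, levels of Lss were −0.89, −0.74 and −0.77 (B6), −0.92, −0.82 and −0.68 (C3H) and −1.17, −1.27 and −0.92 (F1). With E2 for 24 h, levels of Lss were 0.44, 0.67 and 0.79 (B6), 0.44, 0.37 and 0.18 (C3H) and 0.01, 0.03 and 0.28 (F1). This was the member with a fall at 2 h and the least rise at 24 h. By the brightest probe it changed by −0.55, −0.63 and −0.87 at 2 h (SE 0.11, adjusted p = 0.000204, 3.77e-05 and 5.87e-07) and by 0.89, 0.50 and 0.35 at 24 h (adjusted p = 3.56e-07, 0.000422 and 0.00768). The 24 h call in F1 was lost without F1 E2 24 h replicate 3 (adjusted p = 0.0557). The probes to the RefSeq transcript NM_146006 gave other values. At 24 h they rose by 2.54, 2.15 and 2.26 and by 2.32, 2.08 and 2.36, and at 2 h they stood at −0.13, −0.18 and 0.09 and at 0.01, 0.06 and 0.11, with adjusted p from 0.211 to 0.943. The fall at 2 h therefore rests on the probe to AK147680, which the files place at the 3′ side of the others.

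Cyp51, sterol 14-demethylase, the first step after lanosterol, was read by a probe to NM_020010 placed at chr5:4089242-4089301 on mm7. Levels of Cyp51 in vehicle were −2.20, −2.51 and −2.61 (B6), −2.38, −2.48 and −2.59 (C3H) and −2.49, −2.53 and −2.55 (F1). Levels of Cyp51 at 2 h were −2.13, −1.90 and −1.74 (B6), −2.19, −1.43 and −1.85 (C3H) and −2.25, −1.77 and −1.35 (F1). Levels of Cyp51 at 24 h were 0.52, 0.66 and 0.73 (B6), −0.22, −0.08 and −0.20 (C3H) and 0.21, 0.32 and 0.39 (F1). Cyp51 2 h arrays were above the vehicle arrays of their strain, with the nearest values in B6, and 24 h arrays were far above. Cyp51 rose by 0.52, 0.66 and 0.73 at 2 h (SE 0.18, adjusted p = 0.0185, 0.00347 and 0.00141) and by 3.08, 2.31 and 2.83 at 24 h, or 8.44-, 4.97- and 7.11-fold (adjusted p = 5.44e-12, 7.91e-10 and 2.56e-11). The 2 h call in B6 was lost without B6 vehicle replicate 2 or 3 or E2 2 h replicate 3 (adjusted p = 0.0535, 0.0789 and 0.0836), and in all 3 strains with normexp (adjusted p = 0.535, 0.602 and 0.795). The 24 h means were 0.64 ± 0.11 in B6, 0.31 ± 0.09 in F1 and −0.17 ± 0.08 in C3H, without overlap. The junction probe printed above rose by 0.50, 0.78 and 0.74 and 2.92, 2.41 and 2.81 at 2 h and 24 h, and the third probe by 1.16, 1.26 and 1.14 and 2.72, 1.76 and 2.15.

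Srebf2, the gene of the regulator SREBP2, was read by a probe to AK172219 placed at chr15:82289660-82289719 on mm7. Srebf2 lay in vehicle at 3.62, 3.30 and 3.35 (B6), 3.38, 3.31 and 3.42 (C3H) and 3.48, 3.39 and 3.56 (F1). Srebf2 lay at 2 h at 3.64, 3.75 and 3.53 (B6), 3.42, 3.70 and 3.65 (C3H) and 3.51, 3.46 and 3.67 (F1). Srebf2 lay at 24 h at 4.27, 4.31 and 4.60 (B6), 4.05, 3.87 and 3.96 (C3H) and 4.10, 4.11 and 4.15 (F1). The vehicle and 2 h arrays overlapped in B6 and F1 and lay close in C3H, and the 24 h arrays were above both. Its 2 h changes of 0.22, 0.22 and 0.06 (SE 0.10) were not called (adjusted p = 0.0645, 0.0586 and 0.605). The B6 change was called without B6 vehicle replicate 1 (adjusted p = 0.0106) or E2 2 h replicate 3 (0.0421), and the C3H change without C3H E2 2 h replicate 1 (0.0167). With unscaled values all 3 changes were called, at 0.31, 0.41 and 0.32. At 24 h Srebf2 rose by 0.97, 0.59 and 0.64, or 1.96-, 1.5- and 1.56-fold (adjusted p = 2.45e-08, 2.69e-05 and 8.12e-06). The probe to RefSeq NM_033218 at chr15:82288730-82288789 rose more, by 0.46, 0.51 and 0.45 at 2 h (adjusted p = 0.00125, 0.000446 and 0.00145) and by 1.72, 1.60 and 1.54 at 24 h. The probe to BC069989 rose by 0.96, 0.59 and 0.55 and 1.13, 0.88 and 0.99, and the dimmest one by 0.66, 0.13 and 1.35 at 24 h, where the C3H value was not called.

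**Figure D2:**
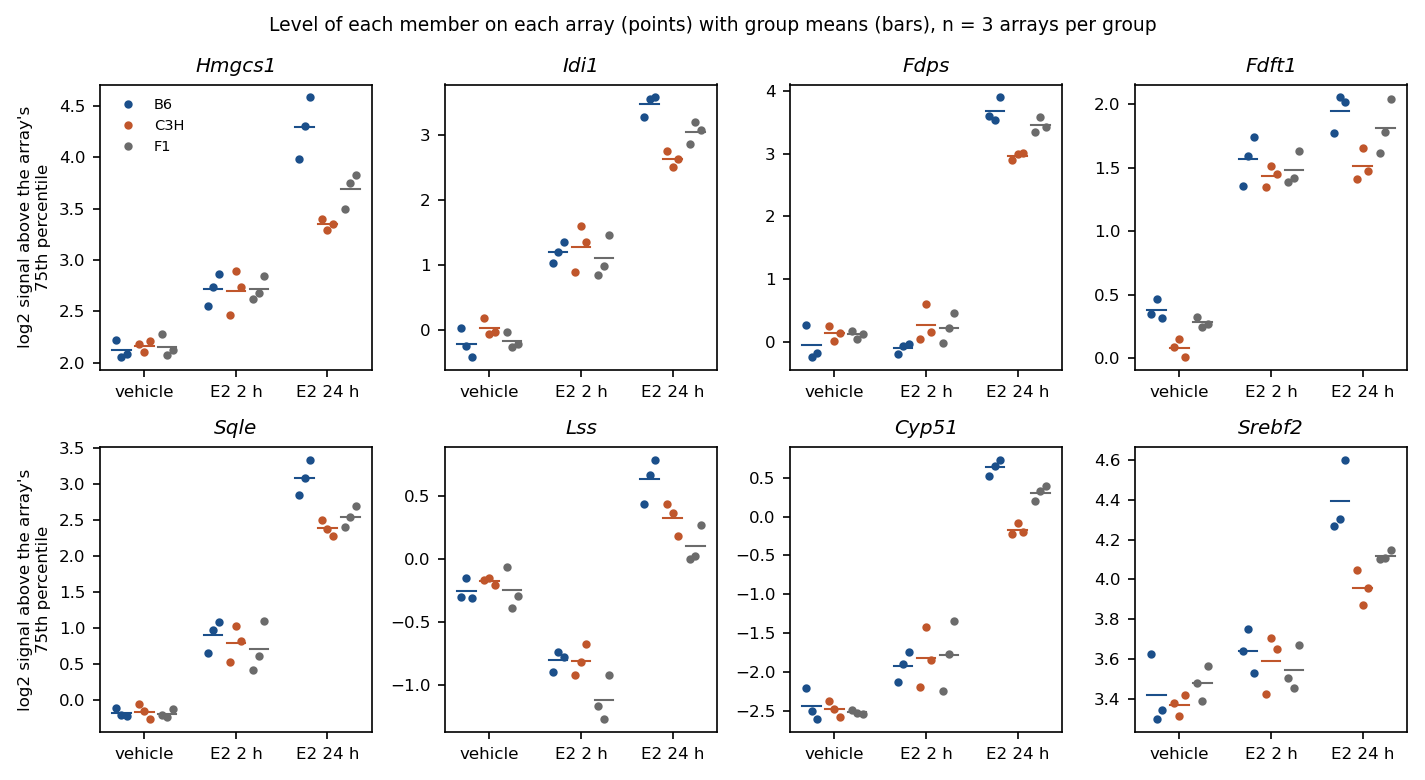
Level of each member (log2 signal above the array's 75th percentile, vertical axis) on each of the 27 arrays (points) by treatment and strain, with group means as bars; each panel has its own scale. For Hmgcs1, Idi1, Sqle, Cyp51 and Fdps the 24 h points of B6 lie above those of C3H, while vehicle points of the strains overlap.

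Across probes, 20 of 20 rose at 24 h in B6, 18 in C3H and 20 in F1, with adjusted p taken over all 32901 probes, of which 30.2%, 26.9% and 31.2% were higher. The exceptions in C3H were the second Fdft1 probe and the dimmest Srebf2 probe, both at 0.13. At 2 h, 13, 12 and 13 probes were higher in B6, C3H and F1, and 1 was lower in each, beside 24.3%, 24.9% and 25% of all probes higher and 31.8%, 35.6% and 34.3% lower. Probes of one gene share its RNA and are not independent.

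**Figure D3:**
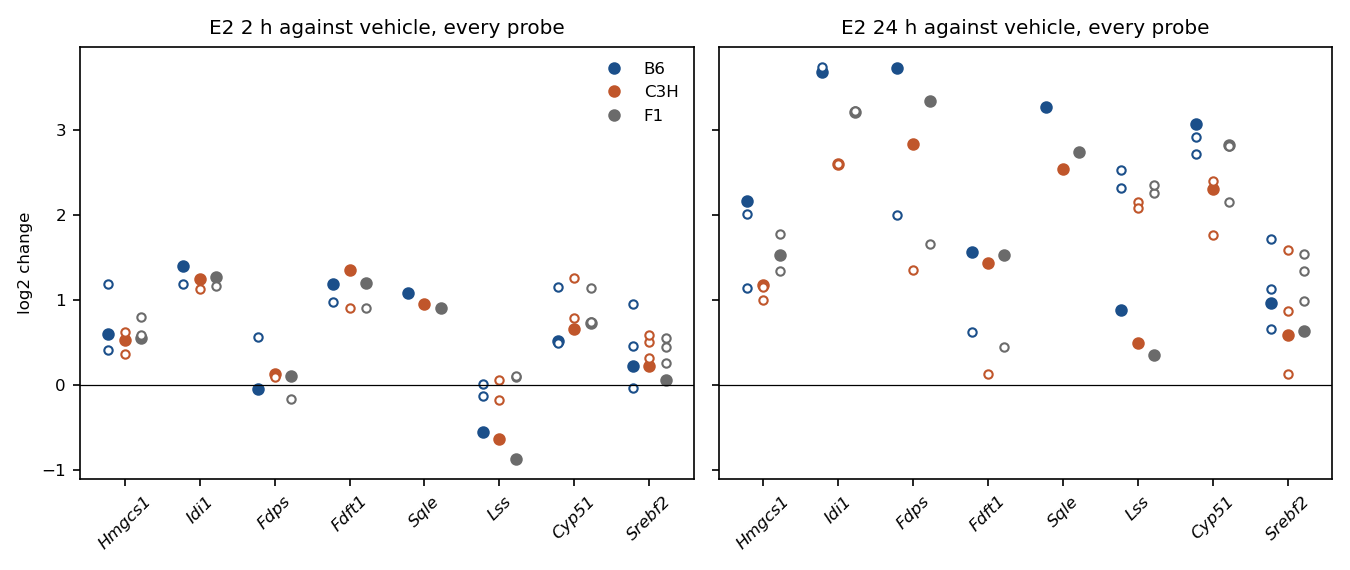
Log2 change against vehicle (vertical axis) of each of the 20 member probes at 2 h and 24 h in B6, C3H and F1; filled points are the brightest probe of a gene and open points its other probes. The Lss probes differ from each other at both times, with the brightest lowest among them, and all 24 h points lie above 0.

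The design compares how uteri of different strains respond to the hormone. In vehicle uterus no member was called different: 0 of 8 between C3H and B6, F1 and B6, or F1 and C3H, where 24.4%, 12.6% and 14.4% of all genes were called (limma). At an unadjusted p under 0.05 the counts were 1, 0 and 0. The 1 was Fdft1, lower in C3H than in B6 (−0.30, SE 0.11, adjusted p = 0.052), with no overlap between the arrays. It was called with 5 of the other settings, among them quantile normalization. Vehicle differences of the 8 members spanned 95% intervals from −0.55 to 0.59 over the 3 comparisons. The C3H against B6 values differed between the fits without and with slide. With slide as a term, the differences between C3H and B6 vehicle went from a range of −0.30 to 0.24, with 3 of 8 below 0, to a range of −0.72 to −0.16, with 8 of 8 below 0. Sqle then stood at −0.72 (adjusted p = 0.245), Fdft1 at −0.71 (adjusted p = 0.0924) and Hmgcs1 at −0.64 (adjusted p = 0.173). The count called stayed at 0 of 8 (limma), and 2 of 8 had an unadjusted p under 0.05. That fit links the vehicle arrays of C3H and B6 through single B6 arrays. They were E2 2 h replicate 1 on slide 1 and E2 24 h replicate 3 on slide 3. The SE of Fdft1 in that fit was 0.24 in place of 0.11. An effect of slide and a deviation of those arrays cannot be told apart there.

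At 2 h no strain difference in the response to E2 was called either. The difference of responses was called for 0 of 8 members in each pair of strains (limma), beside 2.26%, 0.639% and 0.231% of all genes for C3H against B6, F1 against B6 and F1 against C3H. At an unadjusted p under 0.05 the counts were 0, 1 (Lss) and 0. The 95% intervals reached from −0.66 to 0.75, so differences of that size are not shown to be absent.

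At 24 h the response was smaller in C3H than in B6 for 5 of 8 members, beside 18.9% of all genes called in either direction and 13.3% called lower. The differences of the log2 responses were −1.08 (95% interval −1.58 to −0.58, adjusted p = 0.00398) for Idi1, −0.99 (95% interval −1.37 to −0.62, adjusted p = 0.000856) for Hmgcs1 and −0.90 (95% interval −1.33 to −0.48, adjusted p = 0.00471) for Fdps. For Cyp51 the difference was −0.76 (95% interval −1.30 to −0.23, adjusted p = 0.0407) and for Sqle −0.72 (95% interval −1.18 to −0.27, adjusted p = 0.0255). Idi1 thus rose 12.8-fold in B6 and 6.07-fold in C3H, and Hmgcs1 4.51-fold and 2.26-fold. The others were not called: Srebf2 at −0.38 (95% interval −0.67 to −0.09, adjusted p = 0.0616), Lss at −0.39 (95% interval −0.71 to −0.07, adjusted p = 0.0846) and Fdft1 at −0.14 (95% interval −0.46 to 0.18, adjusted p = 0.571). All 8 values were below 0, with a median of −0.74 beside −0.06 for all genes. On the 24 h arrays themselves, C3H lay below B6 without overlap for 8 of 8 members and for 26.2% of all genes.

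The calls of Idi1, Hmgcs1 and Fdps held when any 1 of the 12 arrays was left out. Sqle was called in 6 of those 12 fits (lost without B6 vehicle replicate 2 or 3, B6 E2 24 h replicate 3, C3H vehicle replicate 1 or C3H E2 24 h replicate 2 or 3, highest adjusted p = 0.0763). Cyp51 was called in 2 of 12, those without B6 vehicle replicate 1 or B6 E2 24 h replicate 1 (highest adjusted p of the others = 0.0974). Srebf2 was called without B6 vehicle replicate 1 (adjusted p = 0.015), B6 E2 24 h replicate 1 (0.0412) or C3H E2 24 h replicate 1 (0.0464), and Lss without B6 E2 24 h replicate 1 (0.0346). The count was 3 with quantile normalization, 3 with unscaled values, 1 (Idi1) with normexp background correction, and 6 with Srebf2 added when the 3 arrays that stand apart were left out. Over the 20 probes, 8 were called lower in C3H, 0 higher, and 20 of 20 were below 0, beside 11.3% of all probes called lower and 5.42% higher. The Hmgcs1 probe to AK078743 stood at −0.15. No chain of slides and groups linked the vehicle and 24 h arrays of C3H. A term for slide could therefore not be fitted to this difference, and slide and group cannot be told apart there.

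The hybrid lay between its parents at 24 h for 7 of 8 members by group mean, the exception being Lss, where F1 was lowest. That exception rests on the AK147680 probe (0.63, 0.10 and 0.33 in B6, F1 and C3H). By both probes to NM_146006 F1 lay between its parents, at 0.10, −0.16 and −0.37 and at −0.75, −0.78 and −1.09. The difference of responses was called for 0 of 8 members for F1 against B6 and for F1 against C3H (limma), beside 2.22% and 3.8% of all genes. At an unadjusted p under 0.05 the counts were 4 (Hmgcs1, Sqle, Lss and Srebf2) and 2 (Idi1 and Fdps). Against B6 the nearest to a call were Hmgcs1 at −0.64 (95% interval −1.01 to −0.26, adjusted p = 0.0675) and Lss at −0.54 (95% interval −0.86 to −0.22, adjusted p = 0.0705), both called without B6 E2 24 h replicate 1 (adjusted p = 0.0171 and 0.0353). The Lss value is again that of the AK147680 probe, and the probes to NM_146006 gave −0.28 and 0.04 (adjusted p = 0.423 and 0.952). Against C3H the widest differences were Idi1 at 0.61 (95% interval 0.11 to 1.11, adjusted p = 0.163), Cyp51 at 0.52 (95% interval −0.01 to 1.05, adjusted p = 0.28) and Fdps at 0.51 (95% interval 0.08 to 0.93, adjusted p = 0.182). With only the arrays of the compared groups fitted, Cyp51 and Fdps were called (adjusted p = 0.0328 and 0.048). On the 24 h arrays themselves F1 lay below B6 without overlap for 6 of 8 members and for 22% of all genes. F1 lay above C3H without overlap for 5 of 8 members and for 17.6% of all genes. All 3 F1 24 h arrays were on slide 7, which held no other group. Slide and group therefore cannot be told apart in any F1 comparison at 24 h.

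**Figure D4:**
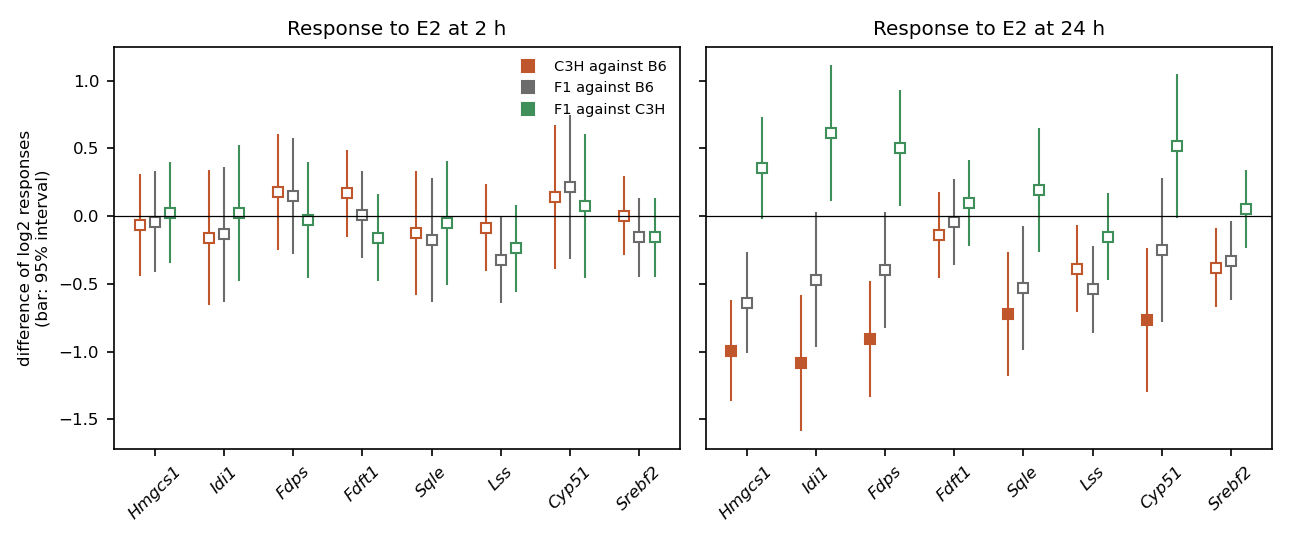
Difference of the log2 response to E2 between pairs of strains (vertical axis) for each member at 2 h and 24 h; bars are 95% intervals, filled squares were called and open squares were not. At 24 h the C3H against B6 squares all lie below 0, with those of Hmgcs1, Idi1, Fdps, Sqle and Cyp51 filled, while at 2 h all squares are open.

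Signals of several cell types moved with the 24 h changes, and those of cell division and epithelium also stood lower in C3H than in B6 at 24 h. As sums of signal over the array's 75th percentile, 10 division genes, all of which were called higher at 24 h in each strain, stood at 13.7 to 18.3 in vehicle and 76.7 to 78.1 at 24 h in B6. In C3H they stood at 16.7 to 17.9 and then 51.6 to 53.5, and in F1 at 13.1 to 15.1 and then 66 to 67.7. The 7 epithelial markers (Epcam, Krt8, Krt18, Krt19, Cdh1, Foxa2 and Cldn7) had 6 higher and 1 lower in each strain, Foxa2 being the one that fell. Their vehicle sums were 111 to 116 in B6, 117 to 130 in C3H and 118 to 138 in F1, and their 24 h sums 256 to 273, 205 to 233 and 247 to 288. At 2 h the epithelial sums were 82.9 to 102, 83.8 to 105 and 90.3 to 118. Of the granulocyte markers 5 of 7 were measured (S100a8, S100a9, Ltf, Ear1 and Prg2). At 24 h they summed to 20.5 to 29.6 in B6, 40.5 to 47.1 in C3H and 37.6 to 47.9 in F1. On vehicle arrays the sums were 2.19 to 6.92. These sums are not split by gene and may be carried by a single gene. No granulocyte share, change or strain difference is therefore read from them. The 6 adipocyte markers summed to 29.8 to 75.8, 2.51 to 32.5 and 27.9 to 120 on vehicle arrays of B6, C3H and F1, and to 10.3 to 35.3, 5.28 to 18.1 and 4.19 to 17.3 at 24 h. Smooth muscle markers, 7 in all, gave counts higher of 5, 5 and 7 and lower of 0, 0 and 0 (B6, C3H, F1) at 24 h. Their sums were 479 to 546 in vehicle and 720 to 820 at 24 h in B6, 610 to 653 and then 753 to 857 in C3H, and 486 to 534 and then 736 to 856 in F1. The 7 stromal markers split, with 4 higher and 3 lower in each strain, and their sums were 399 to 428 and then 485 to 528 in B6, 464 to 491 and then 529 to 611 in C3H and 454 to 461 and then 506 to 536 in F1. Of 6 endothelial markers 5, 3 and 5 were lower and 0 higher, with sums of 21 to 21.5, 19.6 to 20.2 and 18.7 to 21.2 in vehicle and 14.4 to 15, 14.9 to 15.9 and 12.3 to 16 at 24 h. The part of these cell types in the member values was not tested.

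Slides 1 to 6 each carried more than 1 group, so some comparisons could be made within a slide. Slide 7 carried only the F1 24 h arrays. On slide 1 the B6 array at 2 h stood above 3 vehicle arrays by 1.25 for Idi1 and 0.98 for Fdft1, and on slide 6 the 3 F1 arrays at 2 h stood above 1 vehicle array by 1.32 and 1.21. For Lss the same differences were −0.64 and −0.82. With slide as a term the 24 h change in B6 was called for 8 of 8 members, from 0.67 (Lss) to 3.48 (Fdps). It removed the call of Cyp51 at 2 h in B6 (0.31, adjusted p = 0.386) and that of Fdft1 from 2 h to 24 h in B6 (0.24, adjusted p = 0.105). The 24 h changes in C3H and F1 could not be fitted with that term.

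Counts in the gene lists that follow stand beside the shares of all genes given above: at 24 h 30.6%, 26.8% and 31.4% higher and 37.4%, 40.6% and 37.1% lower in B6, C3H and F1, and at 2 h 22.7%, 23.8% and 22.9% higher and 34%, 37.2% and 36.9% lower. The lists, like the members, were chosen with earlier results of these data known.

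The rest of the synthesis pathway was described with 13 further enzymes. At 24 h they gave counts higher of 12, 13 and 13 and lower of 0, 0 and 0 (B6, C3H, F1), with medians of 1.88, 1.47 and 1.49, and 12 of 13 were higher in all 3 strains. The decarboxylase gene Mvd rose by 3.31, 2.62 and 3.16 in B6, C3H and F1, the sterol methyl oxidase gene Msmo1 (named Sc4mol in the files) by 2.81, 1.81 and 2.38 and the mevalonate kinase gene Mvk by 2.60, 2.22 and 2.29.

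At 2 h this list split, with counts higher of 6, 5 and 6 and lower of 6, 6 and 6 (B6, C3H, F1) and medians of 0.01, 0.09 and 0.15. The desaturase gene Sc5d rose by 1.22, 0.46 and 0.83 and Msmo1 by 0.70, 0.75 and 0.78. The 6 that were lower in all 3 strains, named after their values were seen, were Acat2, Mvk, Pmvk, Tm7sf2, Nsdhl and Ebp. The widest falls were those of Tm7sf2, a sterol reductase gene (−0.73, −0.57 and −0.90), and the phosphomevalonate kinase gene Pmvk (−0.67, −0.60 and −0.66), and 5 of these 6 were higher at 24 h in all 3 strains, the exception being Acat2 at 0.15 in B6. With normexp background correction 7 of the 13 were called at 2 h in B6 and 6 in C3H, in place of 12 and 11.

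**Figure D5:**
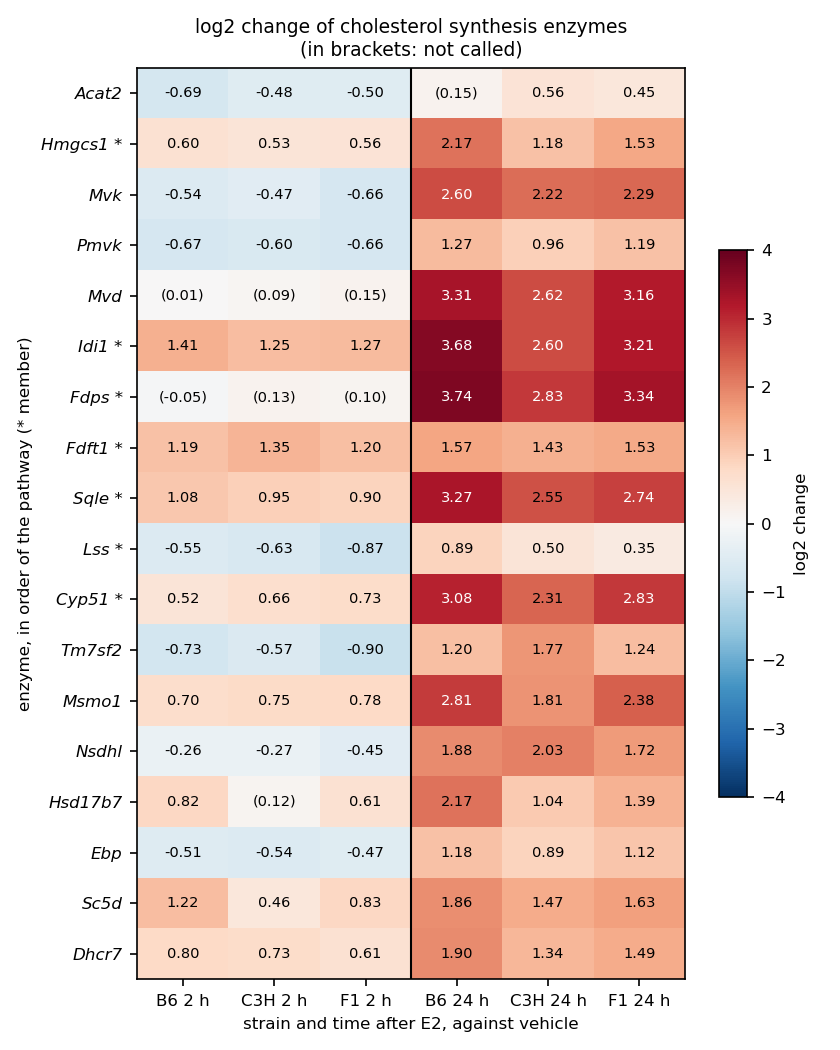
Log2 change against vehicle of 18 enzymes of cholesterol synthesis (rows, in pathway order, members marked with an asterisk) at 2 h and 24 h in B6, C3H and F1 (columns); red is higher, blue is lower, and values in brackets were not called. Red and blue rows are mixed along the pathway at 2 h, and all values are above 0 at 24 h.

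Strain differences of the 24 h response ran through this list too. Between C3H and B6, 6 of 13 differed, 5 with a smaller and 1 with a larger rise in C3H. Of all genes 18.9% differed, 13.3% with a value below 0 and 5.65% above. Among the 5, Hsd17b7, Msmo1, Mvd and Dhcr7 were at −1.13, −0.998, −0.69 and −0.56 (adjusted p = 0.00775, 0.0038, 0.0253 and 0.0109), and Tm7sf2 at 0.57 (adjusted p = 0.00185). In vehicle Hsd17b7 was already higher in C3H, by 0.98. As for the members, slide and group cannot be told apart in these response differences.

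Genes that govern SREBP processing were mixed at 2 h and mostly higher at 24 h. Of 7, the calls at 24 h gave counts higher of 5, 5 and 5 and lower of 1, 1 and 1 (B6, C3H, F1), and at 2 h counts higher of 2, 3 and 2 and lower of 2, 3 and 2 (B6, C3H, F1). The 2 h counts were near the shares of all genes. Insig1, itself a target of SREBP whose product holds Scap and SREBP in the endoplasmic reticulum when sterols are high, stood at 0.18, 0.41 and 0.24 at 2 h (called in C3H) and rose by 1.09, 1.27 and 1.20 at 24 h. Its close relative Insig2 fell at both times (−0.31, −0.47 and −0.46, then −0.50, −0.44 and −0.37). Srebf1, the sister gene of Srebf2 and a regulator of fatty acid synthesis, rose by 0.53, 0.45 and 0.36 and 0.88, 0.32 and 0.46. Scap rose at 24 h by 0.70, 0.36 and 0.47, and the sterol carrier gene Stard4 went from −0.54, −0.86 and −0.84 at 2 h to 1.67, 1.18 and 1.14 at 24 h, called at each.

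Genes of uptake were mixed, and their counts were near the shares of all genes, so nothing is read from them about the list. Mylip, which encodes a ubiquitin ligase, fell at 2 h, with changes of −2.14, −2.04 and −2.41, and stood at −1.53, −1.45 and −1.54 at 24 h. The list of 9 genes gave counts higher of 2, 1 and 1 and lower of 3, 4 and 4 (B6, C3H, F1) at 2 h and counts higher of 1, 3 and 1 and lower of 5, 4 and 4 (B6, C3H, F1) at 24 h, with 24 h medians of −0.22, −0.01 and −0.05. The endocytic receptor genes Lrp2 (−1.46, −1.09 and −1.95) and Vldlr (−0.47, −0.45 and −0.40) were lower at 24 h.

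Genes of efflux and storage went the other way at 24 h, with counts higher of 0, 0 and 0 and lower of 6, 7 and 6 (B6, C3H, F1) among 8 genes and medians of −1.34, −0.88 and −1.11. Apoe, a lipoprotein component, changed by −1.92, −1.91 and −1.71, the cholesterol exporter gene Abca1 by −1.97, −1.36 and −1.79, its relative Abcg1 by −1.52, −1.58 and −1.35 and Nr1h3, the gene of the sterol-sensing receptor LXRα, by −1.17, −1.09 and −1.16. At 2 h Nr1h3 was lower already (−1.06, −1.15 and −1.10), as was Abca1 (−0.38, −0.63 and −0.66). The 24 h fall of Abca1 was smaller in C3H than in B6, the responses differing by 0.61 (adjusted p = 0.044). These genes are also active in macrophages, whose 6 markers summed in vehicle and then at 24 h to 93 to 175 and 67.8 to 101 in B6, 69.6 to 88.1 and 70.6 to 76.9 in C3H, and 66.4 to 84.7 and 51.8 to 78 in F1. The vehicle and 24 h sums overlapped in each strain. Counts of these markers were higher of 0, 1 and 1 and lower of 2, 0 and 0 (B6, C3H, F1).

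Branches beside the sterol path had smaller medians at 24 h. Of 7 measured genes of the non-sterol isoprenoid branches, the 24 h calls gave counts higher of 6, 5 and 6 and lower of 0, 1 and 0 (B6, C3H, F1), with medians of 0.28, 0.28 and 0.25. Fntb, a subunit of farnesyltransferase, rose by 1.25, 1.20 and 1.33 and the ubiquinone side chain gene Pdss1 by 0.94, 0.36 and 0.64. Of 11 genes of fatty acid synthesis the calls gave counts higher of 10, 10 and 9 and lower of 1, 0 and 1 (B6, C3H, F1) and the medians 0.58, 0.83 and 0.54. The malic enzyme gene Me1 (Mod1 in the files) rose by 1.29, 1.84 and 1.50, the elongase gene Elovl6 by 1.47, 0.86 and 0.96 and the desaturase gene Fads2 by 0.84, 1.13 and 1.00. In this list the vehicle levels of 5 genes were lower in C3H than in B6, beside 11% of all genes. Fat cells also express many genes of the list, and their part in these levels was not tested.

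To place the members among all genes, the mean of their centred levels over the 9 groups was correlated with each of 18432 genes. These 9 group means follow one treatment course, and the profile holds each member itself. Against the mean of the other members alone, r was 0.997 for Cyp51, 0.992 for Sqle, 0.983 for Srebf2, 0.981 for Hmgcs1, 0.977 for Idi1 and 0.948 for Fdps. Fdft1 (0.768) and Lss (0.625) followed the others less. Many genes outside the set followed the profile as closely: by r with the whole profile Cyp51 ranked 1 and Sqle 17 of 18432 genes, but Idi1 ranked 142, Hmgcs1 144, Srebf2 152, Fdps 473, Fdft1 2942 and Lss 4151. The genes outside the set that were most alike were Mrpl54, Endog, Uxt, Mrpl35, Cyc1, LOC622592, AI509818 and Rps6ka3, with r from 0.995 to 0.998. Mrpl54 and Mrpl35 encode mitochondrial ribosomal proteins and Cyc1 a subunit of the respiratory chain. Each of these 8 had a narrower range over the groups (1.03 to 1.80 log2 units) than Cyp51 (3.16). The members themselves ranged widely, from 1.02 for Srebf2, 1.75 for Lss and 1.87 for Fdft1 to 3.78 for Fdps. Range therefore did not set the members apart from these 8 as a set.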

How the data were processed

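RNA from 27 uterus samples was hybridised to 1-colour Agilent whole-genome arrays, 1 sample an array. The deposited scanner files hold intensity values per spot, which per the file headers were background-subtracted and processed by Agilent Feature Extraction (version 9.5 per the submitters' processing notes), and the authors' deposited value table equalled the processed signal on 27 of 27 arrays. Control spots (1639 of 45018) and outlier spots were left out, log2 of the deposited processed signal was taken minus each array's 75th percentile, and spots of a probe were averaged. A probe was kept where every array of some group had it well above background (32901 of 41174). The probe with the highest mean signal stood for a gene, which gave 22083 genes.

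A model with 9 groups of 3 arrays and 18 contrasts was fitted with limma 3.58.1 (lmFit, eBayes) in R 4.3.3, with 18 residual and 1.95 prior degrees of freedom, and p-values were adjusted by Benjamini-Hochberg over all genes, or over all probes for single probes. An adjusted p in the text is limma's. The fits were tested on simulated data. Figures were drawn in Python 3.11.15 with matplotlib 3.10.9. The number of arrays limits the precision. Members and gene lists were chosen with earlier results of these data known. Named genes were the members, the genes of each list called in all 3 strains with 1 sign at a time (up to 4 with the largest mean change), defining genes of the lists (Srebf1, Insig1 and Abca1 among them), and the 8 other genes most alike in profile over group means. Some genes that the rule names are counted in their lists but not reported singly here. Of the list genes, Pdss2 and the marker genes Ngp, Camp and Lhcgr were not among the genes tested. Replicate numbers were shared between groups, but in no comparison did all 3 same-numbered pairs deviate together with r over 0.1, so numbers were not taken to pair samples. Alternatives covered the scaling, background correction, dim-probe filter, probe choice, slide, replicate block, arrays fitted and each array left out. After seeing the data, leaving out the 3 arrays that stand apart and choosing a probe to a RefSeq transcript were added. Promoter sequences were from RefSeq (GRCm38.p6), and probe positions (mm7) and sequences from the scanner files.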

Additional observations from a re-analysis of the deposited data

Results flagged for a closer look

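Several results differed between strains by a test of the 24 h response itself (limma, adjusted p under 0.05). Between C3H and B6 the members concerned were Hmgcs1 (−0.99), Sqle (−0.72), Idi1 (−1.08), Fdps (−0.90) and Cyp51 (−0.76), as log2 differences of response. Of all genes, 18.9% were called in that comparison and 13.3% were called lower. With 1 array left out, Sqle was called in 6 of 12 fits and Cyp51 in 2 of 12. Among the other synthesis enzymes these included Mvd (−0.69), Msmo1 (−0.998), Hsd17b7 (−1.13) and Dhcr7 (−0.56), with Tm7sf2 (0.57) in the other direction. Of the regulators and uptake genes, Srebf1 (−0.56) and Scap (−0.35) rose less in C3H, and Npc2, a lysosomal cholesterol carrier gene, differed by 0.46. Abca1 differed by 0.61 and Cyp27a1, a sterol hydroxylase gene, by 0.86. Between F1 and C3H the response differed for Tm7sf2 (−0.53) and Nsdhl (−0.31), beside 3.8% of all genes. Calls of single genes outside the members were not followed through the alternatives. No slide term could be fitted to the 24 h response differences, so slide and group cannot be told apart in them.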

How the results depend on the processing

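The members' rise at 24 h kept its direction in all 3 strains under every alternative run. Of 70 called member values, 2 changed sign under some alternative: the 2 h change of Lss in F1 was 0.092 with the probe to a RefSeq transcript (an alternative chosen after seeing the data), and the 24 h against 2 h difference of Fdft1 in F1 was −0.062 with the mean of all probes. Of 74 values not called, 49 changed sign under at least 1 alternative. In 1 of these cases the turned value was called, namely Fdft1 from 2 h to 24 h in C3H, at −0.35 with the mean of all probes. The largest turned value was −0.72, for Sqle in vehicle C3H against B6 with slide as a term, where 5 of 8 members changed sign. Fdft1 in vehicle, C3H against B6, gave a count of 1 member, in place of 0, with quantile normalization, the filter on all 27 arrays, the replicate block, only the groups compared, and trend and robust fitting. The replicate block changed no other count of members called. The count of members whose 24 h response differed between C3H and B6 was 5, and 3 with quantile normalization, 3 with unscaled values and 1 with normexp, and 3 to 7 with 1 array left out. For F1 against B6 it was 0, with 1 under trend and robust fitting and 0 to 2 with 1 array left out, and for F1 against C3H 0, with 2 when only the groups compared were fitted.

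Counts over all genes, which set the background, depended most on normexp background correction. It gave 4329, 5368 and 5840 at 2 h in B6, C3H and F1 (12518, 13466 and 13191 otherwise), 7024, 4941 and 7184 at 24 h (15021, 14876 and 15126), and 7809, 6962 and 7387 from 2 h to 24 h (15177, 15533 and 15137). Vehicle comparisons C3H against B6, F1 against B6 and F1 against C3H gave 729, 103 and 79 (5392, 2787 and 3172), the 2 h responses 23, 7 and 1 (500, 141 and 51) and the 24 h responses 147, 1 and 1 (4176, 490 and 839). Of the other synthesis enzymes 7 in B6 and 6 in C3H were called at 2 h (12 and 11). With slide as a term the vehicle count C3H against B6 was 1680 and the 2 h response count F1 against B6 76. Unscaled values gave 264, 73 and 20 for the 2 h responses, and 2297 and 167 for the 24 h responses against B6. Only the groups compared gave 1437 for vehicle F1 against B6, 24 and 146 for the 2 h responses of F1, and 77 and 543 for its 24 h responses. The 2 h response count F1 against B6 was 93 with median centring, that of F1 against C3H 85 with quantile normalization, and the 24 h count F1 against B6 276 without the dim-probe filter. Without the 3 arrays that stand apart, the 2 h counts of F1 were 84 and 107 and the 24 h count F1 against C3H was 2282. With 1 array left out, the 2 h response counts were 330 to 444, 75 to 359 and 29 to 60, and the 24 h response counts of F1 180 to 537 and 349 to 1914. The cause of these shifts was not tested.

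All member probes were well above background on every array, and the number of arrays, 3 a group, limited the precision. A slide term was fitted to 7 of 18 contrasts.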
